A study of Mus musculus with 20 samples.

Results

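The 10 genes described here encode enzymes that make serine, one-carbon units and other non-essential amino acids: Phgdh, Psat1, Psph, Shmt2, Mthfd2, Asns, Gpt2, Aldh18a1, Pycr1 and Cth. They were taken by name from the 24421 gene symbols counted in mouse motor neurons that had been differentiated from embryonic stem cells. The choice was made with earlier results of these data known, so counts of members beside the share of all genes only describe them. All 10 were among the 14792 genes with enough reads to test. RNA was sequenced in 20 libraries, 2 in each of 10 groups, and each level below is in CPM, a gene's reads scaled to the same library total throughout.

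The cells were of 2 kinds that the labels call NIL, spinal motor neurons, and NIP, cranial motor neurons. In the usual meaning of these names, NIL and NIP denote stem cells in which added copies of Ngn2, Isl1 and either Lhx3 or Phox2a drive the fate. The labels do not spell this out, give neither promoter nor clone, and do not say whether the 2 replicates of a group were separate cultures. P-values therefore measure only the spread between these libraries, which may be technical. Each kind was sampled at 0 h without drug, and at 12 h and 36 h either untreated or with 20 µM cyclopiazonic acid (CPA), a blocker of the pump that fills the endoplasmic reticulum with calcium, so that proteins in it misfold. The study text gives other hours in places, and the hours in the sample titles were followed.

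Serine is made from a glycolytic intermediate in 3 steps, by Phgdh, Psat1 and Psph. In mitochondria, Shmt2 splits serine into glycine and a folate-bound carbon, and Mthfd2 oxidises that carbon for use in purine synthesis and elsewhere. Asns makes asparagine from aspartate, Gpt2 makes alanine from pyruvate, Aldh18a1 and Pycr1 make proline from glutamate, and Cth releases cysteine in transsulfuration. Several of these genes are textbook targets of Atf4, the transcription factor whose mRNA is translated better when the kinase Perk, sensing misfolded protein, phosphorylates eIF2alpha.

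Atf4 binds, with a C/EBP partner, a site whose core was searched here as the letters TGATGNAA on both strands, since several of these genes are known to be controlled through it. RefSeq promoter windows (GRCm38.p6, 300 bases around each start) were given for 9 of the 10 genes, in 10 windows. The core was found in 2 genes, and in 3.97% of all 32851 windows. The stretches below run 5′ to 3′ on the gene's strand, with the match in capitals.
Asns: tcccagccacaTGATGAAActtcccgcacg
Pycr1: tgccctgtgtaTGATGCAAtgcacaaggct
The Asns stretch is at chr6:7693214-7693243 on the minus strand. Its match begins at position -23 from the RefSeq start and lies within an exon of the longer GENCODE gene model. The Pycr1 stretch is at chr11:120643833-120643862, also on the minus strand, upstream of the GENCODE gene, with its match beginning at position -103. The UPRE letters TGACGTGG, bound by Xbp1 and Atf6, were in no member's window and in 0.676% of all windows. The ERSE, the longer Atf6 element, was likewise in none and in 0.119% of all windows. A match to letters is not a bound site, and a window without a match says only that these letters are not in it.

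Libraries held 7996454 to 30321152 gene reads each. Rn45s, the ribosomal RNA precursor, took 5.18% to 38.6% of them, highest in untreated NIP at 36 h replicate 1, with CPA-treated NIL at 36 h replicate 2 also high. The labels held up against 4 genes checked. Hspa5, the endoplasmic reticulum chaperone, was at 305 to 693 CPM in the libraries without CPA and at 1251 to 4482 CPM in those with it. Ddit3, the stress transcription factor also called Chop, was at 6.90 to 26.0 CPM without CPA and at 73.8 to 271 CPM with it. Lhx3 was at 115 CPM or above in every NIL library and at 0.326 CPM or below in every NIP library, and Phox2a was at 56.9 CPM or above in NIP and at 3.31 CPM or below in NIL. Both may include reads of an added copy. The 12 motor neuron and neuron markers summed to 1866 to 8414 CPM, with none at 0 in a whole group, and markers of other cell types are given beside several of the results.

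Adding CPA raised these genes in both kinds of motor neuron. By edgeR's quasi-likelihood test with Benjamini-Hochberg adjustment over all genes (adjusted p under 0.05), 7 of the 10 rose in NIL at 12 h, 4 in NIL at 36 h, 5 in NIP at 12 h and 9 in NIP at 36 h, and none fell. Of all genes tested, 1.55%, 0.446%, 2.96% and 1.33% rose in the same comparisons. The median log2 change of the 10 was 2.42 in NIL at 12 h, 1.92 in NIL at 36 h, 1.42 in NIP at 12 h and 2.53 in NIP at 36 h. Over all genes the medians in these comparisons were -0.03, 0.01, -0.01 and 0.03, and in every other comparison below they lay within the range of -0.02 to 0.06. Replicate numbers pair the libraries, and with the replicate number as a block the counts were 9, 9, 6 and 10, beside 4.16%, 7.25%, 7.54% and 5.10% of all genes. Only at 36 h in NIL did the block move the count by over 1.5 times. Shmt2, Asns, Gpt2, Pycr1 and Phgdh were the members it added there.

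**Figure D1:**
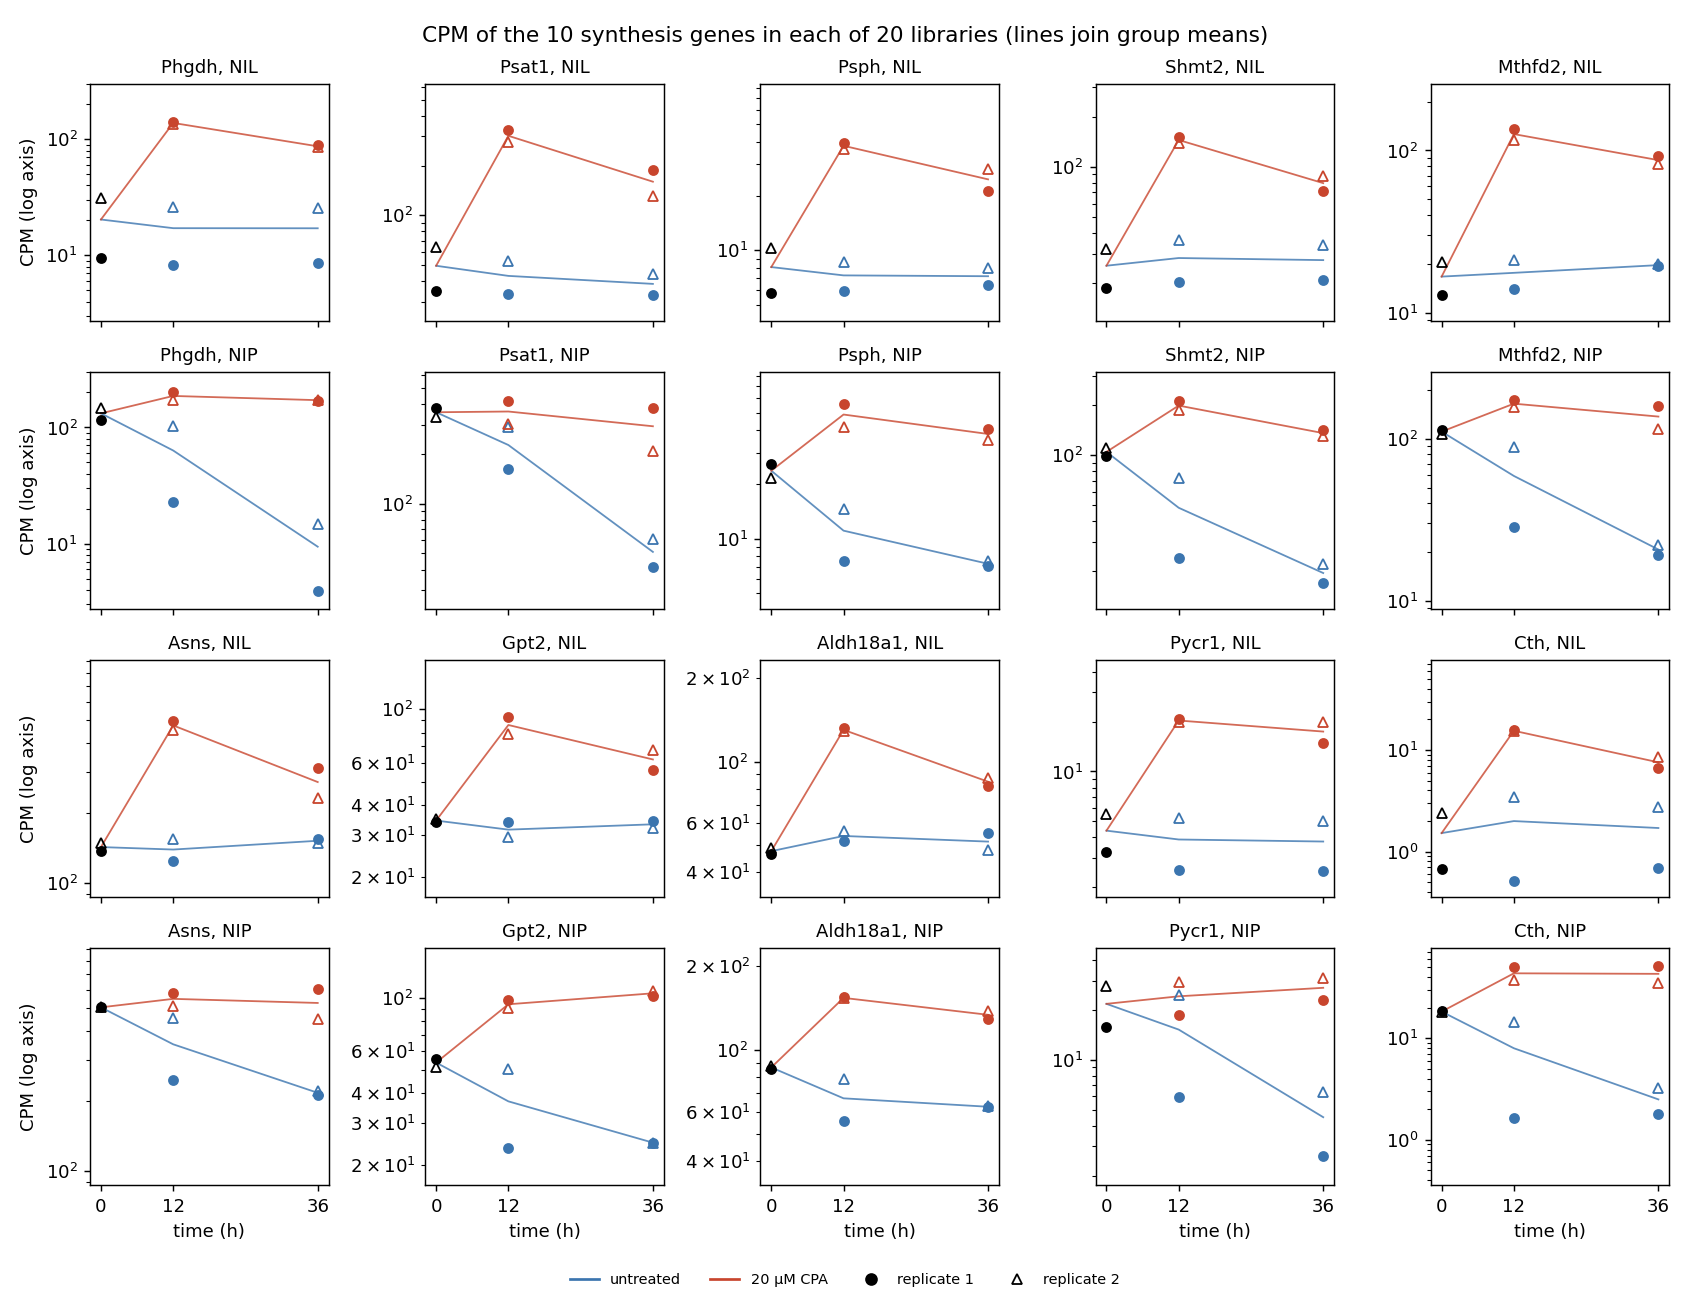
CPM (log axis) of each gene against time in h, NIL above NIP, with filled circles for replicate 1, open triangles for replicate 2, blue for untreated, red for 20 µM CPA, black for 0 h and lines joining group means. In NIL the untreated values stay level and the group means with CPA are highest at 12 h; in NIP the values start high, sink without CPA and stay near or above the start with it, apart from Psat1 in replicate 2 at 36 h.

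The serine synthesis genes moved by several-fold. Phgdh, which takes the first and committed step, was at 8.32 and 26.0 CPM in untreated NIL at 12 h and at 141 and 135 CPM with CPA. Both treated libraries lay far above both untreated ones; the untreated libraries differed from each other, and the log2 change of 3.05 ± 0.82 (SE) had an adjusted p of 0.0804. With the replicate block it was 3.26 ± 0.69, with an adjusted p of 0.0170. In NIP at 36 h Phgdh was at 3.93 and 14.9 CPM untreated and at 169.9 and 174 CPM with CPA. That was a log2 change of 4.13 ± 0.86, or 17.5-fold, and passed with an adjusted p of 0.0242. In the other comparisons Phgdh did not pass, at 5.17-fold in NIL at 36 h (adjusted p = 0.164) and 2.95-fold in NIP at 12 h (adjusted p = 0.322).

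Psat1, the transaminase of the second step, was at 33.4 and 52.8 CPM in untreated NIL at 12 h and at 326 and 279 CPM with CPA, 7.05-fold higher (adjusted p = 0.00315). At 36 h in NIL it was at 33.1 and 44.1 CPM untreated and at 189 and 131 CPM with CPA, 4.15-fold higher (adjusted p = 0.0416). In NIP at 12 h it was at 161 and 291 CPM untreated and at 416 and 303 CPM with CPA. There the lower treated library was only just above the higher untreated one, and the change of 0.67 ± 0.39 did not pass (adjusted p = 0.423). At 36 h in NIP, 41.2 and 61.0 CPM untreated stood against 379 and 207 CPM with CPA, 5.72-fold higher (adjusted p = 0.00643).

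Psph, the phosphatase of the last step, passed in all 4 comparisons. Its untreated values were 5.94 to 8.59 CPM in NIL at 12 h and 36 h and 7.03 to 14.6 CPM in NIP. Its CPA values were 21.3 to 39.7 CPM in NIL and 35.4 to 56.1 CPM in NIP, with no overlap. The rise was 5.31-fold in NIL at 12 h, 3.46-fold in NIL at 36 h, 4.42-fold in NIP at 12 h and 5.24-fold in NIP at 36 h. Exons of a Cct6a transcript overlap Psph on the other strand, and exons of Ndufa4l2 overlap Shmt2 likewise. The strand setting of the counting is not given in the sources used here, so reads of these neighbours cannot be told apart from the members' own.

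The mitochondrial folate pair rose as well. Shmt2 was at 20.1 and 36.2 CPM in untreated NIL at 12 h and at 151 and 139 CPM with CPA, 5.18-fold higher (adjusted p = 0.0127). In NIP at 36 h it was at 16.9 and 21.97 CPM untreated and at 141 and 129.8 CPM with CPA, 6.92-fold higher (adjusted p = 0.00643). It was 4.13-fold higher in NIP at 12 h (adjusted p = 0.0175) and 2.92-fold in NIL at 36 h, which did not pass (adjusted p = 0.108). Mthfd2 passed in all 4 comparisons. It was at 14.0 and 21.1 CPM in untreated NIL at 12 h and at 136 and 117 CPM with CPA, 7.25-fold higher (adjusted p = 0.00315), and at 19.2 and 22.2 against 159.7 and 114 CPM in NIP at 36 h, 6.60-fold higher (adjusted p = 0.00492). In NIL at 36 h it was 4.45-fold higher, and in NIP at 12 h 2.80-fold higher with an adjusted p of 0.0493, close to the threshold.

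Asns was the most abundant member per length of exon, at a mean of 122 CPM per kb over the 20 libraries. It was at 125 and 154 CPM in untreated NIL at 12 h and at 497 and 452 CPM with CPA, 3.41-fold higher (adjusted p = 0.00293). In NIP it was 2.43-fold higher at 36 h (adjusted p = 0.0195) but 1.57-fold at 12 h, which did not pass (adjusted p = 0.188). Gpt2 was at 33.7 and 29.3 CPM in untreated NIL at 12 h and at 93.1 and 79.0 CPM with CPA, a 2.73-fold rise. It also rose in NIP, 2.54-fold at 12 h and 4.20-fold at 36 h, where 24.8 and 24.9 CPM stood against 101 and 107 CPM. In NIL at 36 h neither gene passed, with Asns at 1.79-fold (adjusted p = 0.128) and Gpt2 at 1.86-fold (adjusted p = 0.108).

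Aldh18a1, the first enzyme of proline synthesis, passed in all 4 comparisons with the smallest SE of the 10. It was at 51.9 and 56.3 CPM in untreated NIL at 12 h and at 132 and 129 CPM with CPA, a log2 change of 1.27 ± 0.15 (adjusted p = 0.000778). Its other rises were 1.64-fold in NIL at 36 h, a log2 change of 1.20 ± 0.15 in NIP at 12 h and 2.14-fold in NIP at 36 h. Pycr1, the last enzyme of that path, had larger but less certain changes, and none passed. In NIL at 12 h it was at 2.55 and 5.22 CPM untreated and at 20.8 and 19.8 CPM with CPA (log2 change 2.44 ± 0.64, adjusted p = 0.0731). In NIP at 12 h its groups overlapped, at 5.95 and 24.4 CPM untreated and 18.7 and 29.5 CPM with CPA (log2 change 0.67 ± 0.59, adjusted p = 0.660). In NIL at 36 h its log2 change was 2.24 ± 0.64 (adjusted p = 0.111). With the replicate block Pycr1 passed in NIL at 12 h (adjusted p = 0.000649) and 36 h (0.00184) and in NIP at 36 h (0.000462).

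Cth was the scarcest of the 10 per kb of exon in untreated NIL. It was at 0.510 and 3.48 CPM there at 12 h, from as few as 15 reads, and at 15.7 and 15.2 CPM with CPA. The log2 change of 3.18 ± 0.99 did not pass (adjusted p = 0.139). In NIP at 36 h Cth was at 1.79 and 3.21 CPM untreated and at 51.3 and 35.0 CPM with CPA, 16.6-fold higher, with an adjusted p of 0.0490. It did not pass in NIL at 36 h, at 0.688 and 2.72 against 6.66 and 8.47 CPM (adjusted p = 0.259), nor in NIP at 12 h, at 1.64 and 14.3 against 49.999 and 37.3 CPM (adjusted p = 0.154).

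Which of the 10 passed depended on single libraries. Here and below, counts with libraries left out have no share of all genes beside them unless one is given. The direction with 1 library left out was kept by all but Pycr1 in NIP at 12 h, whose log2 change was -0.02 without untreated replicate 1. Within replicate 1 alone, and within replicate 2 alone, all 10 were higher with CPA in each of the 4 comparisons. Median log2 ratios were 2.97 and 2.01 in NIL at 12 h, 2.01 and 1.60 in NIL at 36 h, 2.32 and 0.83 in NIP at 12 h and 3.06 and 2.27 in NIP at 36 h. At 36 h in NIL the count was 0 without either untreated library or without CPA replicate 2, and 3 without CPA replicate 1, with medians of 1.58 to 1.99. At 36 h in NIP it was 0 without untreated replicate 1, which holds the most Rn45s, and 1 without untreated replicate 2, with medians of 2.298 and 2.81. It was 6 and 7 without CPA replicate 1 and 2. Without both libraries high in Rn45s no member passed at 36 h in either line, with medians of 1.82 in NIL and 2.31 in NIP. At that setting 0 of all genes rose in either line. At 12 h in NIL leaving out 1 library left 3 to 6 members, with 3 and a median of 2.07 without untreated replicate 1. At 12 h in NIP the count was 2 if CPA replicate 1 was left out, 3 if CPA replicate 2 or untreated replicate 1 was, and 6 if untreated replicate 2 was.

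Markers of other cells moved with CPA in part. Motor neuron and neuron markers summed to 5632 and 4739 CPM in untreated NIL at 12 h and to 3456 and 2446 CPM with CPA, and Prph, a neuronal filament gene, was the only marker of the 12 that fell there (log2 change -0.83 ± 0.20, adjusted p = 0.0433). In the other 3 comparisons these sums were lower with CPA as well, without overlap, at 5803 and 4186 against 3617 and 1866 CPM in NIL at 36 h, 8329 and 6906 against 5412 and 4568 CPM in NIP at 12 h, and 8414 and 6887 against 6514 and 4995 CPM in NIP at 36 h. Slc18a3, the vesicular acetylcholine carrier, was the 1 neuron marker that fell in NIL at 36 h (log2 change -1.68 ± 0.36, adjusted p = 0.0496), and none passed in NIP. Fabp7, of the neural progenitor and glia list, fell by 2.64 on the log2 scale in NIL at 12 h. Markers of endoderm and endothelium summed to 1856 and 7335 CPM in untreated NIL at 36 h and to 5521 and 11812 CPM with CPA, though none of the 8 passed. Here and below that sum mainly follows 1 gene, Col4a1, which ran from 106 to 10936 CPM over the 20 libraries with a median of 1224. The next highest median of the 8 was 51.3 CPM, for Gata4. In NIL at 12 h that sum was 1472 and 3956 CPM untreated and 1767 and 5474 CPM with CPA, overlapping ranges. In NIP at 36 h it was 192 and 1200.3 CPM untreated and 122 and 2770.0 CPM with CPA. Pluripotency markers in NIL at 36 h summed to 64.6 and 352 CPM untreated and to 117 and 464 CPM with CPA. Proliferation markers there summed to 196 and 499 CPM untreated and to 383 and 570 CPM with CPA, and no marker of either list passed. At 12 h in NIL the pluripotency sums were lower with CPA, at 68.3 and 319 against 66.3 and 255 CPM. The part of these cells in the rise of the 10 genes was not tested. In these bulk samples a change in the share of a cell type and a change in RNA per cell cannot be told apart.

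Across the groups the sum of the 10 genes ordered as follows. Untreated NIL was lowest, at 295 to 398 CPM over its 6 libraries at all times, and did not differ beyond its spread from untreated NIP at 36 h, at 392 and 447 CPM. Untreated NIP at 12 h came next, at 577 and 1192 CPM, and its range took in NIL with CPA at 36 h, at 934 and 829 CPM. NIP at 0 h, at 1415 and 1409.6 CPM, lay inside the range of NIL with CPA at 12 h, at 1551 and 1401 CPM. NIP with CPA at 36 h, at 1798 and 1423 CPM, overlapped with that range too, and NIP with CPA at 12 h had the highest mean, at 1962 and 1684 CPM, overlapping with NIP with CPA at 36 h. NIP without any drug began at a summed level that NIL had after 12 h of CPA. Asns and Psat1, at means of 333 and 188 CPM over all libraries, weigh most in the sum, and the match does not hold gene by gene. Means at the NIP start were lower for Psph (23.8 against 38.0 CPM), Shmt2 (104 against 145), Gpt2 (53.6 against 86.1) and Aldh18a1 (86.5 against 130). Mthfd2 and Phgdh were lower by less, and Psat1, Asns, Pycr1 and Cth had the higher mean at the NIP start.

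**Figure D2:**
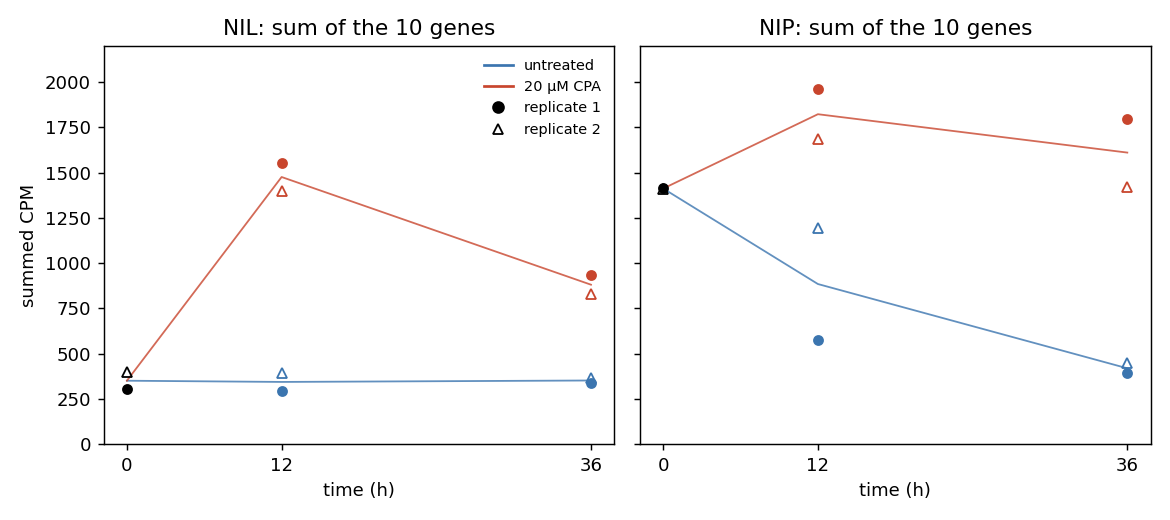
Summed CPM of the 10 genes against time in h in NIL (left) and NIP (right), with circles and triangles for replicates 1 and 2, blue for untreated, red for CPA, black for 0 h and lines joining group means. Untreated NIP goes from 1415 and 1409.6 CPM at 0 h to 392 and 447 CPM at 36 h, while untreated NIL stays between 295 and 398 CPM.

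At 0 h, before any drug, 9 of the 10 were higher in NIP than in NIL, beside 7.86% of all genes. The median difference was 2.19 on the log2 scale. Psat1 was at 35.2 and 64.1 CPM in NIL and at 379 and 333 CPM in NIP, 7.20-fold higher (adjusted p = 0.000454). Mthfd2 was at 12.7 and 20.6 CPM in NIL and at 114 and 107 CPM in NIP, 6.69-fold higher. Cth was at 0.669 and 2.37 CPM in NIL and at 18.4 and 18.2 CPM in NIP, 13.2-fold higher (adjusted p = 0.0264). Asns, at 137 and 148 against 505 and 504 CPM, was 3.54-fold higher. For each of these genes the NIP pair lay wholly above the NIL pair. Gpt2 was the exception to the test, at 34.0 and 34.7 against 55.7 and 51.4 CPM (log2 difference 0.64 ± 0.25, adjusted p = 0.126).

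Markers of proliferating cells summed to 219.9 and 598 CPM in NIL and to 93.8 and 171 CPM in NIP at 0 h, and those of pluripotent cells to 68.1 and 299 CPM in NIL and 45.7 and 75.5 CPM in NIP. None of these markers passed, with list medians of -1.87 and -3.66. The proliferation sums were lower in NIP without overlap. The pluripotency sums overlapped, and within each replicate number the NIP sum was the lower one. Those of endoderm and endothelium were at 953 and 3374 CPM in NIL and at 298 and 1077 CPM in NIP, lower in NIP within each number, and none of the 8 markers passed. Mesenchyme markers were lower in NIP for 4 of 5 tested, at sums of 8.73 and 19.1 CPM in NIL and 2.66 and 1.90 CPM in NIP. Of 7 tested markers of neural progenitors and glia 1 was higher in NIP and 2 lower, and of 12 neuron markers 2 were higher and 2 lower. The part of these cells in the difference between the lines was not tested. Leaving out 1 library left 4 to 8 of the 10 synthesis genes higher in NIP, with 4 without NIL replicate 1.

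Without drug the NIP levels then sank, which is the background for every NIP comparison at later times. From 0 h to 36 h, 6 of the 10 fell in untreated NIP: Phgdh, Psat1, Psph, Shmt2, Mthfd2 and Asns. Of all genes, 0.602% fell. The median log2 change of the 10 was -2.31. With the replicate block Gpt2 and Pycr1 fell as well, 8 in all, beside 4.40% of all genes. Within replicate 1 and within replicate 2 all 10 were lower at 36 h, with median log2 ratios of -2.56 and -2.19. Proliferation markers summed to 93.8 and 171 CPM at 0 h and to 56.8 and 106 CPM at 36 h in untreated NIP, lower within each replicate number, with a list median of -0.74 and none of the 8 passing. Their part in the fall was not tested.

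Phgdh went from 116 and 148 CPM at 0 h to 22.8 and 104 CPM at 12 h and 3.93 and 14.9 CPM at 36 h in untreated NIP. Its log2 change by 36 h was -3.75 ± 0.85, with an adjusted p of 0.04998 just under the threshold. Psat1 went from 379 and 333 to 161 and 291 and then to 41.2 and 61.0 CPM (log2 change -2.80 ± 0.41, adjusted p = 0.00984). Mthfd2 went from 114 and 107 to 28.4 and 89.5 and then to 19.2 and 22.2 CPM (log2 change -2.41 ± 0.41, adjusted p = 0.0160). For all 3 genes both 36 h libraries lay below both 12 h libraries, which lay below both at 0 h.

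Asns fell from 505 and 504 CPM to 212 and 222 CPM, a log2 change of -1.22 ± 0.25. Aldh18a1 moved least, from 85.1 and 87.9 CPM to 62.2 and 62.8 CPM, and did not pass (log2 change -0.47 ± 0.15, adjusted p = 0.163). Cth, from 18.4 and 18.2 to 1.79 and 3.21 CPM, did not pass either (log2 change -2.82 ± 0.94, adjusted p = 0.176). Leaving out NIP 0 h replicate 1 left 0 members that fell, leaving out its partner at 0 h left 1, and leaving out either untreated 36 h library left 0, with medians of -2.43, -2.08, -1.98 and -2.56.

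**Figure D3:**
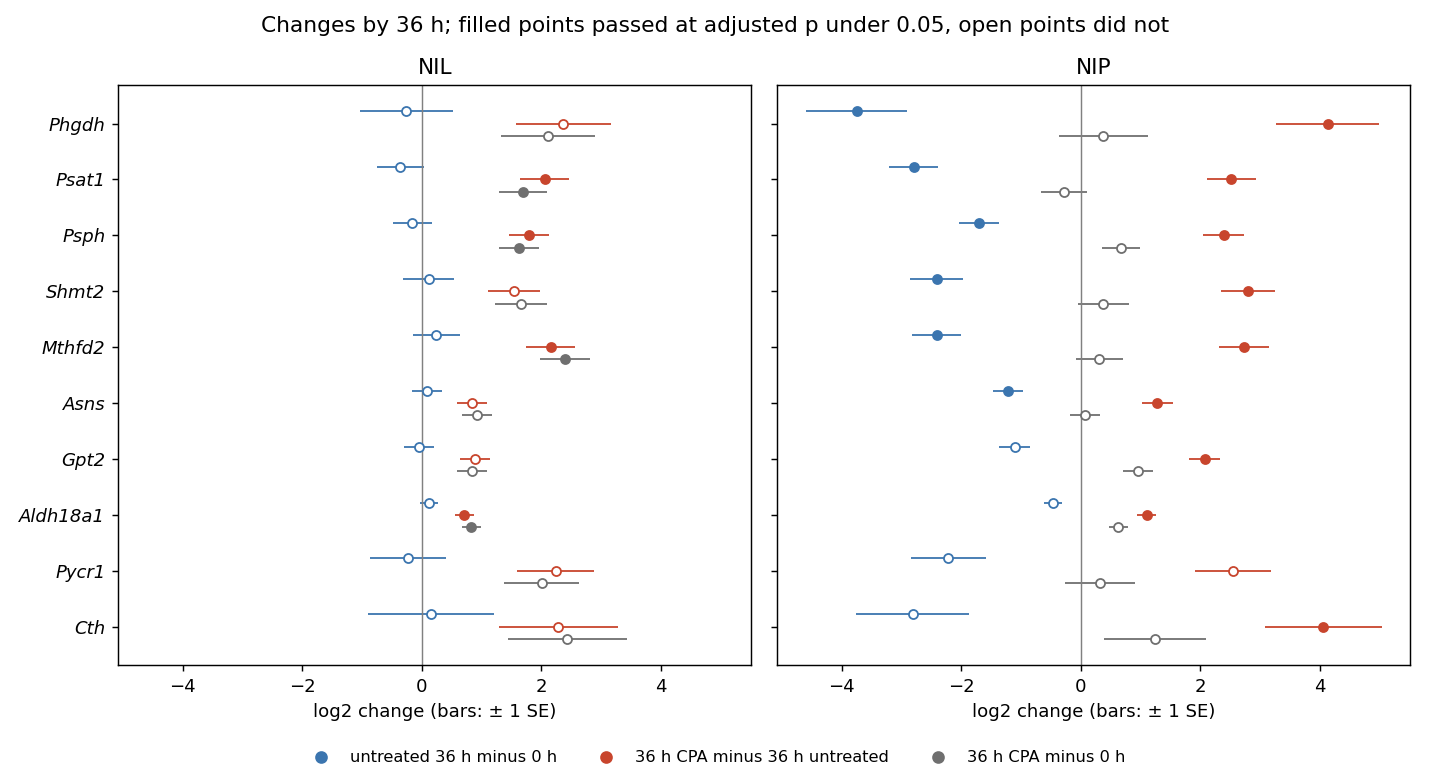
Log2 change of each gene by 36 h in NIL (left) and NIP (right), as untreated 36 h minus 0 h (blue), CPA minus untreated at 36 h (red) and CPA at 36 h minus 0 h (grey), with bars of ± 1 SE and filled points where the adjusted p was under 0.05. In NIP the blue points are left of 0 and the red ones right of it, with the grey ones nearer 0; in NIL the blue points sit near 0 and the red and grey ones nearly coincide.

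The untreated fall in NIP and the CPA rise at 36 h share the untreated 36 h libraries, so a low value there moves both. Set side by side, the changes were -3.75 and 4.13 for Phgdh, -2.80 and 2.52 for Psat1, -1.71 and 2.39 for Psph, -2.42 and 2.79 for Shmt2 and -2.41 and 2.72 for Mthfd2. They were -1.22 and 1.28 for Asns, -1.11 and 2.07 for Gpt2, -0.47 and 1.10 for Aldh18a1, -2.22 and 2.54 for Pycr1 and -2.82 and 4.05 for Cth. Against the start, which does not use those libraries, CPA at 36 h left 0 of the 10 higher in NIP by edgeR, beside 0.0676% of all genes. The median log2 change was 0.38. At an unadjusted p under 0.05 there were 2, and DESeq2 and the replicate block each passed 2, without the share of all genes at these settings. With the block these were Gpt2, from 55.7 and 51.4 CPM to 101 and 107 CPM (log2 change 0.96 ± 0.23, adjusted p = 0.0273), and Aldh18a1, from 85.1 and 87.9 to 129.7 and 138 CPM (0.63 ± 0.14, adjusted p = 0.0216). Psat1, at 379 and 333 CPM at 0 h and 379 and 207 CPM after 36 h of CPA, and Asns, at 505 and 504 and then 603 and 452 CPM, overlapped with their start.

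In NIL the untreated levels did not move detectably. From 0 h none of the 10 changed in untreated NIL at 12 h or at 36 h by edgeR, none reached an unadjusted p under 0.05, and none passed by DESeq2 or with the block. Of all genes 0% changed by 12 h and 0.027% by 36 h. After 36 h of CPA, 4 of the 10 (Psat1, Psph, Mthfd2 and Aldh18a1) were above the 0 h level, beside 1.05% of all genes. With the replicate block 9 were, a count without the share of all genes at that setting. Mthfd2 went from 12.7 and 20.6 CPM to 92.2 and 82.2 CPM, a log2 change of 2.40 ± 0.41. The 4 became 0 without NIL 0 h replicate 1 or CPA replicate 2, 2 without 0 h replicate 2 and 3 without CPA replicate 1.

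The untreated NIP pair at 12 h differed widely within itself for these genes. Replicate 1 summed to 577 CPM and replicate 2 to 1192 CPM, from a start of 1415 and 1409.6 CPM. Cth was at 1.64 and 14.3 CPM, Phgdh at 22.8 and 104 CPM, Shmt2 at 23.8 and 72.3 CPM and Asns at 247 and 454 CPM. Atf4 itself was at 72.3 and 157 CPM in the pair and at 182 and 171 CPM at 0 h. Trib3, a target of Atf4, was at 2.00 and 9.24 CPM in the pair and at 15.0 and 12.1 CPM at 0 h. In all 10 genes replicate 1 was the lower of the pair. Markers of proliferating cells were at 72.1 and 141 CPM in the pair and at 93.8 and 171 CPM at 0 h, and those of endoderm and endothelium at 265 and 986 against 298 and 1077 CPM, and their part in the difference within the pair was not tested.

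With this pair, 0 of the 10 passed from 0 h to 12 h in untreated NIP by edgeR, beside 0% of all genes called lower. There were 4 at an unadjusted p under 0.05, and 0 by DESeq2 and with the block. All 10 were lower in replicate 1 and in replicate 2, with median log2 ratios of -1.59 and -0.23. With the block and without replicate 2, 3 members fell; without replicate 1, none did. The CPA rise in NIP at 12 h moved likewise: with the block it held 8 members and a median of 2.27 without untreated replicate 2, and 4 members and a median of 0.93 without untreated replicate 1.

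At later times fewer of the 10 passed between the lines. Whether the difference between the lines changed from 0 h to 12 h was not tested. At 12 h untreated, 3 of the 10 were higher in NIP (Psat1, Mthfd2 and Asns), beside 7.68% of all genes, with a median of 1.54. Phgdh there was at 8.32 and 26.0 CPM in NIL and at 22.8 and 104 CPM in NIP, overlapping ranges. The 3 became 1 without NIP replicate 2, with a median of 0.26 and 7 of the 10 keeping their sign, and 6 without NIP replicate 1, with a median of 2.04. At 36 h untreated, 0 were higher by edgeR, 0 at an unadjusted p under 0.05 and 0 by DESeq2, beside 7% of all genes, with a median of 0.18 (-0.14 when libraries were scaled by their totals alone). Phgdh, at 8.58 and 25.7 CPM in NIL and 3.93 and 14.9 CPM in NIP, and Shmt2, at 20.8 and 34.0 against 16.9 and 21.97 CPM, had the lower mean in NIP and overlapped. Gpt2, at 34.2 and 32.1 against 24.8 and 24.9 CPM, was lower in NIP without overlap, and its log2 difference of -0.42 ± 0.25 did not pass (adjusted p = 0.320). Proliferation markers summed to 218 and 575 CPM in NIL and 72.1 and 141 CPM in NIP at 12 h untreated. At 36 h untreated they summed to 196 and 499 against 56.8 and 106 CPM. None of the 8 passed at either time, but their list medians were -2.23 and -2.38. At an unadjusted p under 0.05 there were 5 and 8, without the share of all genes beside them. Of 8 pluripotency markers 1 was lower in NIP at each time, with list medians of -5.29 and -3.92, beside 4.28% and 4.56% of all genes. Of 12 neuron markers 2 were higher in NIP at each time, with 2 and 1 lower. The part of these cells in the differences was not tested.

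Under CPA the NIP means were the higher ones for all 10 genes, and few differences passed. Proliferation markers summed to 226 and 537 CPM in NIL and 69.8 and 142 CPM in NIP at 12 h of CPA. At 36 h of CPA they summed to 383 and 570 against 57.1 and 155 CPM. Of these 8 markers 0 and 1 were lower in NIP at 12 h and 36 h, with list medians of -2.10 and -2.48. Of 8 pluripotency markers 0 and 1 were lower, and of 5 tested mesenchyme markers 3 at each time. Of 7 tested markers of neural progenitors and glia 1 and 2 were lower, and 1 and 0 higher. Of all genes 3.39% and 6.56% were lower. Of 12 neuron markers 2 and 4 were higher in NIP at these times, with 1 lower at each. The part of these cells was not tested. At 12 h of CPA, 0 of the 10 were higher in NIP by edgeR, at an unadjusted p under 0.05 or by DESeq2, beside 6.77% of all genes, with a median of 0.30. Differences ran from 0.12 ± 0.25 for Gpt2 to 1.49 ± 0.86 for Cth, and the pairs of Psat1, Gpt2 and Pycr1 overlapped. At 36 h of CPA, Asns and Aldh18a1 were higher in NIP, beside 10.4% of all genes, with a median of 0.76. At that time Cth, at 6.66 and 8.47 against 51.3 and 35.0 CPM, was 5.73-fold higher in NIP without passing (adjusted p = 0.0727). Asns was at 312 and 231 CPM in NIL and at 603 and 452 CPM in NIP, 1.94-fold higher (adjusted p = 0.0198). Aldh18a1 was at 82.1 and 87.4 CPM in NIL and at 129.7 and 138 CPM in NIP, 1.58-fold higher (adjusted p = 0.0101). The replicate block added Gpt2 (0.76 ± 0.23, adjusted p = 0.0163) and Cth (2.60 ± 0.82, adjusted p = 0.0288), 4 in all, beside 19.3% of all genes. Leaving out either library of a pair left 1 member (without NIL replicate 1 or NIP replicate 2) or 0 (without NIL replicate 2 or NIP replicate 1).

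**Figure D4:**
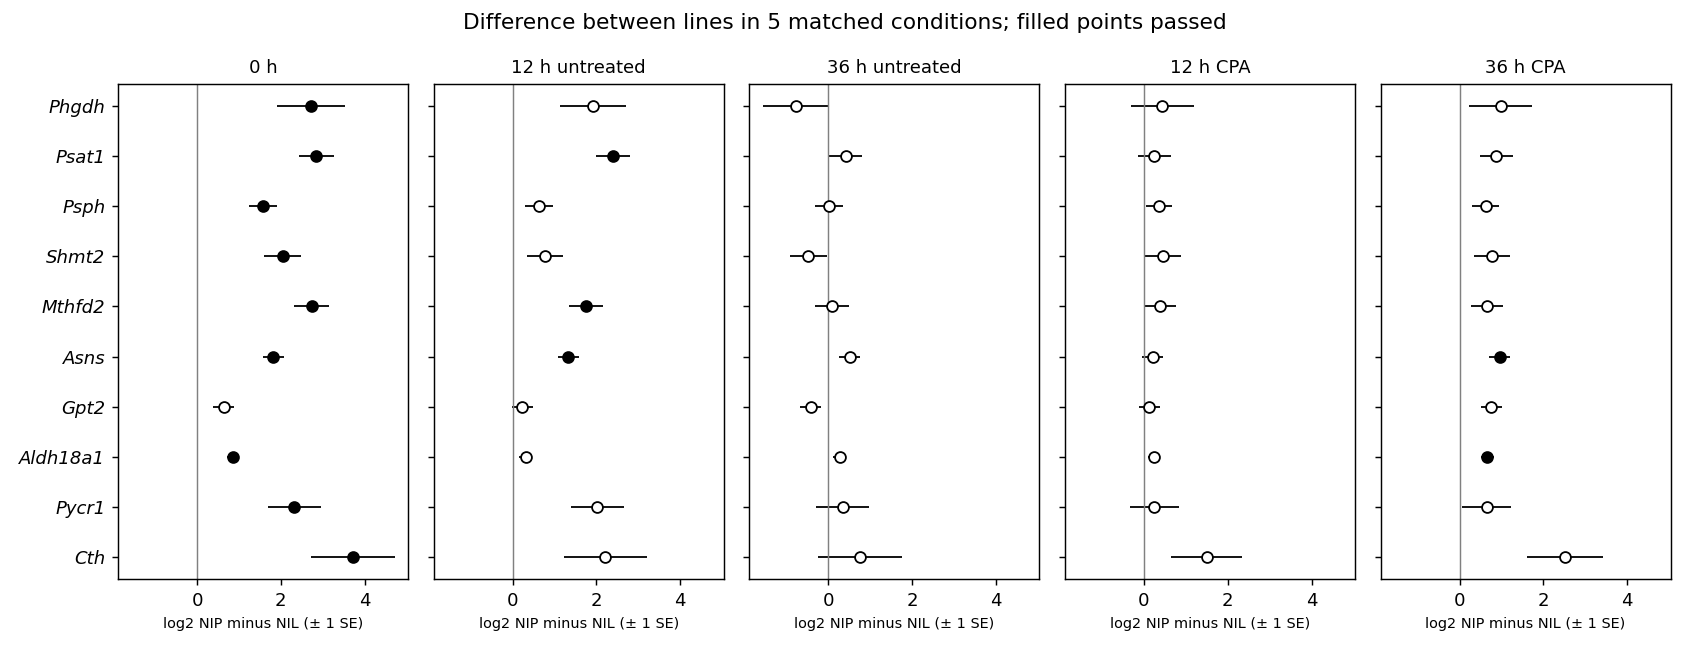
Log2 difference of each gene, NIP minus NIL, in 5 matched conditions, with bars of ± 1 SE and filled points where the adjusted p was under 0.05. The filled points number 9 at 0 h, 3 at 12 h untreated, 0 at 36 h untreated, 0 at 12 h of CPA and 2 at 36 h of CPA.

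None of the tests of a difference between responses passed for any member by edgeR. The counts at an unadjusted p below have no share of all genes beside them. At 12 h the CPA response of NIP minus that of NIL had a median of -0.92, with Psat1 at -2.14 ± 0.55 (adjusted p = 1) and 3 of the 10 at an unadjusted p under 0.05. At 36 h the median was 0.58, with Gpt2 at 1.17 ± 0.36 (adjusted p = 0.733) and 1 at an unadjusted p under 0.05. Of all genes, 0% passed at either time. The response at 36 h minus that at 12 h had a median of -0.69 in NIL, with 2 at an unadjusted p under 0.05, and of 0.99 in NIP, with 4. There 0.00676% and 0.0135% of all genes passed. DESeq2 passed 0 members in these 4 tests. A rise called in 1 line or at 1 time and not in the other is therefore not shown to differ.

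The untreated change over 36 h, NIP minus NIL, had a median of -2.21. By edgeR 0 members and 0% of all genes passed, although 9 of the 10 had an unadjusted p under 0.05. DESeq2 passed 3, and with the replicate block Shmt2 passed (-2.56 ± 0.51, adjusted p = 0.0474). The counts at an unadjusted p, by DESeq2 and with the block have no share of all genes beside them, so they are no result about the members. Mthfd2 had the smallest adjusted p of the 10 by edgeR, at -2.66 ± 0.57 (adjusted p = 0.315), and Phgdh the largest difference, at -3.50 ± 1.12 (adjusted p = 0.543).

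Around the 10 genes, some other enzymes of the pathway moved. The lists were chosen with earlier results of these data known. Of all genes 1.55% rose in NIL at 12 h, 0.446% in NIL at 36 h, 2.96% in NIP at 12 h and 1.33% in NIP at 36 h, and 1.74% and 0.994% fell in NIP at these times. Of 22 other genes of serine, glycine and one-carbon metabolism, 2 rose in NIL at 12 h, 0 in NIL at 36 h (edgeR, 5 at an unadjusted p under 0.05) and 2 in NIP at each time, and 1 fell in NIP at each time. The list's median log2 changes were -0.13, 0.29, 0.17 and 0.29. Mthfd1l, which releases formate from the mitochondrial folate path, rose by 1.90 ± 0.30 in NIL at 12 h and by 2.20 ± 0.30 in NIP at 36 h. Aldh1l2, the mitochondrial enzyme that oxidises formyl-folate, rose by 2.24 ± 0.38 and 1.98 ± 0.38 in the same comparisons. Its cytosolic counterpart Aldh1l1, also a marker of astrocytes, fell in NIP, by 1.69 on the log2 scale at 12 h and by 1.63 at 36 h. Shmt1 and Mthfd1, the cytosolic counterparts of Shmt2 and Mthfd2, were picked after their values were seen. Their changes in NIL at 12 h were 0.06 ± 0.97 and -0.43 ± 0.53, and in NIP at 36 h 0.15 ± 1.08 and 0.42 ± 0.54, and neither passed in any of the 4 comparisons.

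Beside 1.55%, 0.446%, 2.96% and 1.33% of all genes, 3 of 18 other enzymes of amino acid synthesis and breakdown rose in NIL at 12 h, 1 in NIL at 36 h, 2 in NIP at 12 h and 3 in NIP at 36 h. These were Bcat1, Bcat2 and Got1, which pass amino groups to or from branched-chain amino acids and aspartate. Bcat1, the cytosolic branched-chain enzyme, rose by 3.12 ± 0.49 in NIL at 12 h and by 2.25 ± 0.47 in NIP at 36 h. It was also higher in NIP than NIL at 0 h, by 3.18 ± 0.48, and fell in untreated NIP, by 2.22 on the log2 scale by 36 h. The list's median change was near 0 with CPA, between -0.28 and 0.04.

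Amino acid transporters moved more as the 10 enzymes did. Of 10 listed, 7 rose in NIL at 12 h, 4 in NIL at 36 h, 7 in NIP at 12 h and 8 in NIP at 36 h, with medians of 2.50, 1.78, 1.44 and 2.49. Of all genes 1.55%, 0.446%, 2.96% and 1.33% did. Slc6a9, a glycine carrier, rose by 4.84 ± 0.51 in NIL at 12 h, and Slc1a4, a carrier of serine, alanine and cysteine, by 1.92 ± 0.18. At 0 h 7 were higher in NIP than in NIL, beside 7.86% of all genes, with Slc7a5, the light chain of the large neutral amino acid carrier, higher by 2.60 ± 0.32. By 36 h untreated 3 fell in NIP, beside 0.602% of all genes: Slc7a5 by 1.87, its heavy chain Slc3a2 by 1.48 and Slc6a9 by 2.43 on the log2 scale.

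Of 19 regulators and targets of the eIF2alpha kinases and Atf4, 11 rose in NIL at 12 h, 8 in NIL at 36 h, 12 in NIP at 12 h and 10 in NIP at 36 h. Of all genes 1.55%, 0.446%, 2.96% and 1.33% did. Atf4 mRNA went from 55.2 and 72.0 CPM untreated to 370.5 and 299.9 CPM with CPA in NIL at 12 h, a log2 change of 2.40 ± 0.30, and the ranges were far apart. At 0 h Atf4 was at 78.2 and 85.8 CPM in NIL and at 182 and 171 CPM in NIP. By 36 h untreated it was at 78.5 and 72.5 CPM in NIP, a log2 change of -1.23 ± 0.29 that did not pass (adjusted p = 0.0544). Stc2, a secreted stress target, was the 1 gene of this list that fell in untreated NIP, by 3.41 on the log2 scale. At 0 h 7 of the 19 were higher in NIP and 2 lower, beside 7.86% and 4.61% of all genes. Those with the smallest p were Myc (1.90 ± 0.33) and Atf5 (2.17 ± 0.39).

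As a description of how alike the 10 were, the log2 CPM of each pair was correlated over the 10 group means, which share libraries and scaling. Pearson's r was 0.811 for Asns and Gpt2, the least alike, and 0.988 for Psph and Shmt2, the most alike, with a median of 0.949 over 45 pairs. Among 10851 other genes with a mean of at least 5 CPM, those whose profile was most like the mean of the 10 were Slc3a2 (r = 0.993), Aars, the alanyl-tRNA synthetase (r = 0.985), Slc7a5 (r = 0.984), Mthfd1l (r = 0.980) and Slc7a1, the cationic amino acid carrier (r = 0.979). Slc3a2, Slc7a5, Slc7a1 and Mthfd1l are also in the lists above.

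Per kb of exon, mean levels over the 20 libraries ran from 122 CPM for Asns through 44.2 for Psat1, 33.9 for Phgdh, 26.1 for Shmt2, 21.8 for Mthfd2 and 21.4 for Aldh18a1 to 9.93 for Gpt2, 5.15 for Cth, 4.95 for Psph and 3.62 for Pycr1. Neighbours such as Mthfd2 and Aldh18a1, or Cth and Psph, lay far closer than their spread over libraries. As a ratio of highest to lowest library, the range was widest for Cth, from 0.510 to 51.3 CPM, and narrowest for Aldh18a1, from 46.6 to 155 CPM. The 10 genes lie apart on GRCm38. Asns and Mthfd2 share chromosome 6 (7675169 to 7693254 and 83305691 to 83325908), Phgdh and Cth chromosome 3 (98313170 to 98339990 and 157894248 to 157925077) and Psat1 and Aldh18a1 chromosome 19 (15904678 to 15947337 and 40550257 to 40588463), all on the minus strand.

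Over all groups together, 3 of the 10 were higher in replicate 2, near the share over all genes. In the fit with the block these were Phgdh (0.83 ± 0.30, adjusted p = 0.0406), Shmt2 (0.42 ± 0.16, adjusted p = 0.0408) and Pycr1 (0.80 ± 0.16, adjusted p = 0.000906), beside 24.7% of all genes. Another 3614 of the 14792 genes were lower in replicate 2, so a difference between the numbers is not particular to these members. Untreated NIL at 36 h shows it, with Phgdh at 8.58 and 25.7 CPM and Pycr1 at 2.50 and 5.06 CPM. With CPA Phgdh did not, at 141 and 135 CPM in NIL at 12 h and 201 and 173 CPM in NIP at 12 h, and Shmt2 was likewise higher in replicate 1 there, at 151 and 139 CPM and at 211 and 186 CPM. Asns did not share it (0.01 ± 0.10, adjusted p = 0.944). Median sums of proliferation markers were 145 CPM in replicate 1 libraries and 335 CPM in replicate 2 libraries, of pluripotency markers 56.7 and 166 CPM, and of endoderm and endothelium markers 625 and 3072 CPM. Their part in the higher levels of these 3 genes was not tested.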

How the data were processed

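RNA-seq of 20 mouse libraries was analysed from the gene counts that the authors deposited, raw and one file per library. Per the submitters' processing notes, HTSeq 0.6.1p1 is listed beside TopHat2 2.1.1, Picard and Bowtie2 2.3.2, with the build GRCm38 (mm10). Per the labels, ribosomal RNA was depleted from total RNA. The annotation release and strand setting are not given in the sources used here. The 5 summary lines of each file name no gene and were left out. Reads placed at several sites made up 18.2% to 52.6% of all that a file counts.

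Counts were fitted with edgeR 4.0.16 (R 4.3.3): filterByExpr, TMM scaling, a mean for each of 10 groups, robust quasi-likelihood F tests with 10 residual degrees of freedom, and Benjamini-Hochberg adjustment over 14792 genes within each of 20 comparisons. SE is the log2 change divided by the root of F. CPM use TMM-scaled totals. Exon lengths and gene positions come from GENCODE and promoters from RefSeq. Replicate numbers were taken to pair libraries, since deviations from group means correlated for all 45 pairs of groups (r 0.243 to 0.763, median 0.467). Alternatives were that block, DESeq2 1.42.0, other scalings and filters, the libraries of 1 line, and leaving out libraries. The fit was tested on simulated data. The 10 genes were the named genes of each comparison, and those not given singly are in its counts and ranges. From each list up to 4 genes with the smallest p are named, and the 5 most alike in pattern. The members and lists were chosen with earlier results of these data known.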

Additional observations from a re-analysis of the deposited data

How the results depend on the processing

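Across 2620 values of single members under alternatives, 2286 kept their direction and their side of the threshold, 178 no longer passed, 69 newly passed, and 0 reversed where either fit passed. Another 87 changed sign and passed in neither fit. Counting libraries by their totals, without scaling, moved the median of all genes most in the CPA response of NIP minus NIL at 36 h, from 0.06 to 0.47 on the log2 scale. The counts of members past the threshold moved as follows, and the cause was not tested. Where no share of all genes is given for a setting, these counts are no result about the members.

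With the replicate block, 9 rose with CPA in NIL at 36 h, 9 were above 0 h in NIL with CPA at 36 h, 2 in NIP, 4 were higher in NIP at 36 h of CPA and 1 passed in the untreated change of NIP minus NIL. The block changed no other count of members by over 1.5 times. DESeq2 gave 9, 8 and 2 for the first 3 and 3 for the last. Library totals gave 0 for CPA in NIL at 36 h and for NIL with CPA at 36 h against 0 h, 0 for the lines at 36 h of CPA and 5 for the lines at 0 h. With only NIL libraries, 0 rose with CPA at 36 h and 1 was above 0 h. Without both libraries high in Rn45s, 0 passed for CPA at 36 h in NIL or NIP, the lines at 36 h of CPA, the untreated fall of NIP by 36 h and NIL with CPA at 36 h against 0 h, where fewer libraries were fitted.

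Alternatives with the block and without 1 untreated NIP library at 12 h were chosen after seeing the data, and their counts have no share of all genes beside them. Without replicate 2, 8 rose with CPA in NIP at 12 h and 3 fell from 0 h to 12 h. Without replicate 1, 10 were higher in NIP than NIL at 12 h untreated, 2 had a smaller CPA response in NIP than NIL at 12 h, and 3 had a larger CPA response in NIP at 36 h than at 12 h.

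Leaving out each library in turn, the lone library of a group being taken to vary like the others, gave these ranges. They have no share of all genes beside them. They do not show that these members depend on single libraries more than other genes do. Members higher with CPA were 3 to 6 in NIL at 12 h, 0 to 3 in NIL at 36 h, 2 to 6 in NIP at 12 h and 0 to 7 in NIP at 36 h. Those higher in NIP than NIL were 4 to 8 at 0 h, 1 to 6 at 12 h untreated and 0 to 1 at 36 h of CPA. Those that fell in untreated NIP by 36 h were 0 to 1, and those above 0 h in NIL with CPA at 36 h were 0 to 3. Each group had 2 libraries, and Cth had as few as 15 reads in a library. For CPA in NIL at 12 h the SE was largest for Cth (0.99), Phgdh (0.82) and Pycr1 (0.64). The part of depth and of replicate spread in this was not tested.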
